A study of Mus musculus with 45 samples.

Results

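A set of 10 long noncoding RNAs (lncRNAs) was followed through excitotoxic signaling in mouse hippocampal neurons: Meg3, Rian, Mirg, Miat, Malat1, Neat1, Snhg11, Peg13, Kcnq1ot1 and Pantr1. They were chosen by symbol as abundant neuronal or nuclear lncRNAs, and each matched 1 Ensembl gene, so that all 10 were found among the 54532 genes of the count table. All 10 passed the filter of at least 1 read in every comparison, and the lowest raw count of any of them in any library was 61, for Neat1 in a control library.

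RNA-seq was performed on primary hippocampal neurons from newborn (P0) C57BL/6N mice, grown in B27 medium with 1% rat serum, with AraC added at DIV 3 against dividing cells. The study's methods state a change to a serum-free neuronal medium before treatment, which the labels place at DIV 10 or 11 and the methods for RNA-seq at DIV 11. Each of 5 separate culture preparations (numbered 1, 3, 6, 7 and 8) gave 1 library in each of 9 conditions, 45 in all. The untreated controls were compared with 0.5, 1 and 2 h of bicuculline (Bic, 50 µM), which blocks GABA type A receptors and thereby induces AP firing. The short protocol (SP) began with 0.5 h of Bic alone, to which tetrodotoxin (TTX, 1 µM), which silences AP firing, or TTX plus NMDA (30 µM) was added for another 0.5 h. The long protocol (LP) had 1 h of Bic and then 1 h of the same additions, or of the glutamate uptake blocker TBOA (50 µM). Bic stayed on to the end in both protocols. The passive effect is TTX against Bic of the same total duration, the active effect is TTX/NMDA against TTX, the total effect is TTX/NMDA against that Bic condition, and glutamate spillover is TBOA against 2 h Bic. These comparisons share libraries: the TTX libraries enter both the passive and the active effect, and 2 h Bic enters 4 comparisons.

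Many lncRNAs stay in the nucleus, where they are known to scaffold nuclear bodies or to act on chromatin near their own gene. Meg3, Rian and Mirg are read in the same direction from the maternal copy of the imprinted Dlk1-Dio3 region, a region very active in brain, and Rian and Mirg carry small nucleolar RNAs and microRNAs. Malat1 and Miat are found in or near nuclear domains of splicing factors, Neat1 is the architectural RNA of paraspeckles, and Kcnq1ot1 is a paternally expressed antisense RNA that silences its neighbours in early development.

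The sequences bear on what these transcripts carry and on where they start. Inside the Mirg gene (chr12:109729764-109749460, plus strand, GRCm38), RefSeq places 26 mature miRNAs from 14 hairpins, and 6 mature miRNAs lie inside Rian and 3 inside Meg3. Of the 34 distinct seeds among these 35 miRNAs, 1 was shared, by miR-453 and miR-496a-5p. They are printed here with miR-134-5p, known from dendritic spines, and, as examples from the other hosts, miR-370-3p of Rian and miR-770-5p of Meg3. Capitals mark the seed (bases 2 to 8). Poly-A libraries count the host transcript, not the mature miRNA.
miR-453: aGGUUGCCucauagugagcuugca
miR-496a-5p: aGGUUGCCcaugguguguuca
miR-134-5p: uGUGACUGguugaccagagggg
miR-370-3p: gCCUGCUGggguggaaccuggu
miR-770-5p: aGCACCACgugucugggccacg

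Promoter windows of RefSeq (GRCm38.p6), from 250 bases before the start to 50 bases from the start on, were at hand for 7 of the 10 genes, in 8 windows, and not for Neat1, Peg13 and Pantr1. The windows were searched on both strands for TGACG, the core of the cAMP response element bound by CREB, for the full element TGACGTCA that contains it, for the AP-1 motif TGANTCA, for the TATA box TATAAA and for the CCAAT box. TGACG stood in the windows of 3 members, Meg3, Malat1 and Kcnq1ot1, which are printed below with each copy on either strand in capitals, and in 20.8% of all 32851 windows. Meg3 alone held the full TGACGTCA, 57 bases before its start (1.79% of all windows), with TATAAA at 29 and 25 bases before the start (13.6% of all windows). Malat1 held 3 copies of TGACG, at 154, 45 and 3 bases before the start, and Kcnq1ot1 held 1, at 42 bases. CCAAT was present for Meg3, Mirg and Kcnq1ot1 (37.4% of all windows), and TGANTCA for none of the 7 (7.81% of all windows). These matches describe letters in a window, and binding was not measured. The windows of Mirg and Miat and the Meg3 window at chr12:109545148-109545447 lie inside the gene models, past their annotated starts. The Mirg window (chr12:109734731-109735030) holds the mature miR-668-5p, miR-668-3p and miR-485-3p sequences. What was found or missing there does not describe the sequence before the annotated start of Mirg.
Meg3, chr12:109540746-109541045, plus strand: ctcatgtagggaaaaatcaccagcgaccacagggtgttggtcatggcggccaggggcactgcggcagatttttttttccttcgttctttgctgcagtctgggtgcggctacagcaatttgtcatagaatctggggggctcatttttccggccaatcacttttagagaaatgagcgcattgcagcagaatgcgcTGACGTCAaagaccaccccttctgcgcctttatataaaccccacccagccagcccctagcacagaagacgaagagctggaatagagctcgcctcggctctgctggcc
Malat1, chr19:5802623-5802922, minus strand: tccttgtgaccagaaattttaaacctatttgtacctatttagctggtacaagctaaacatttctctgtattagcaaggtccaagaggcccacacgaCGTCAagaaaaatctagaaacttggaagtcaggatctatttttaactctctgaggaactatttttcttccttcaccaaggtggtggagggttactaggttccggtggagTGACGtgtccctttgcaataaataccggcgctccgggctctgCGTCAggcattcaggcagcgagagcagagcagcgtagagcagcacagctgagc
Kcnq1ot1, chr7:143296498-143296797, minus strand: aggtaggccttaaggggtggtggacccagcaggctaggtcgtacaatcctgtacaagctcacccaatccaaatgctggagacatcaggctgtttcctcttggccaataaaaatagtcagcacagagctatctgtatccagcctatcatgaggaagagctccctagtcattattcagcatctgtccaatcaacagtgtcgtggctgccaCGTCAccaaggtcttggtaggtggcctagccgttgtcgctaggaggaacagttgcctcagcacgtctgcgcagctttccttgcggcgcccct

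A library held between 11316580 and 81129276 counts in genes (median 26239614). All 11 neuron markers examined were detected in every library, with a summed level of 8032 to 11120 CPM (counts scaled to the size of the library), against 450 to 1716 CPM for 7 astrocyte markers and 4.31 to 8.09 CPM for 5 microglia markers. The 4 endothelium and mural markers summed to 10.4 to 26.6 CPM. Of these, Cldn5 was at 0 in 27 libraries, and Pecam1, Pdgfrb and Rgs5 were at 0 in none. The activity-induced genes Fos, Npas4, Arc and Bdnf together rose from a median of 208 CPM in the controls to 5005 CPM after 2 h Bic. In bulk RNA, fewer cells of a type and less RNA per cell cannot be told apart.

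The 10 lncRNAs took between 0.301% and 0.703% of all counts. Their share had a median of 0.383% in the controls, 0.424% after 2 h Bic, 0.446% with LP TTX and 0.637% with LP TTX/NMDA. The 5 LP TTX/NMDA libraries held at least 0.554%, above the highest LP TTX library at 0.496%. Meg3 had the highest counts of the 10, with a control level of 1898 ± 201 CPM (SD, n = 5).

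Divided by the length of the merged exons, the control levels spread over a wide range. Meg3 was highest at 105 ± 11.1 CPM per kb (SD, n = 5), and no other member reached its lowest library. Malat1 (53.5 ± 6.03), Rian (44.7 ± 3.67), Peg13 (39.4 ± 5.77) and Snhg11 (36.7 ± 5.09) followed, and neighbours in this order overlapped in their library values. Miat stood at 21 ± 5.3 CPM per kb, its highest library at 29.4 just under the lowest of Snhg11 at 30.4. Pantr1 (4.74 ± 0.68), Mirg (2.18 ± 0.116), Neat1 (0.246 ± 0.0322) and Kcnq1ot1 (0.0977 ± 0.012) closed the order without overlap. The annotated length of Neat1 (20771 bases) and Kcnq1ot1 (93092 bases) is a single unspliced exon each, so their low level per kb is an average over a long model.

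**Figure D1:**
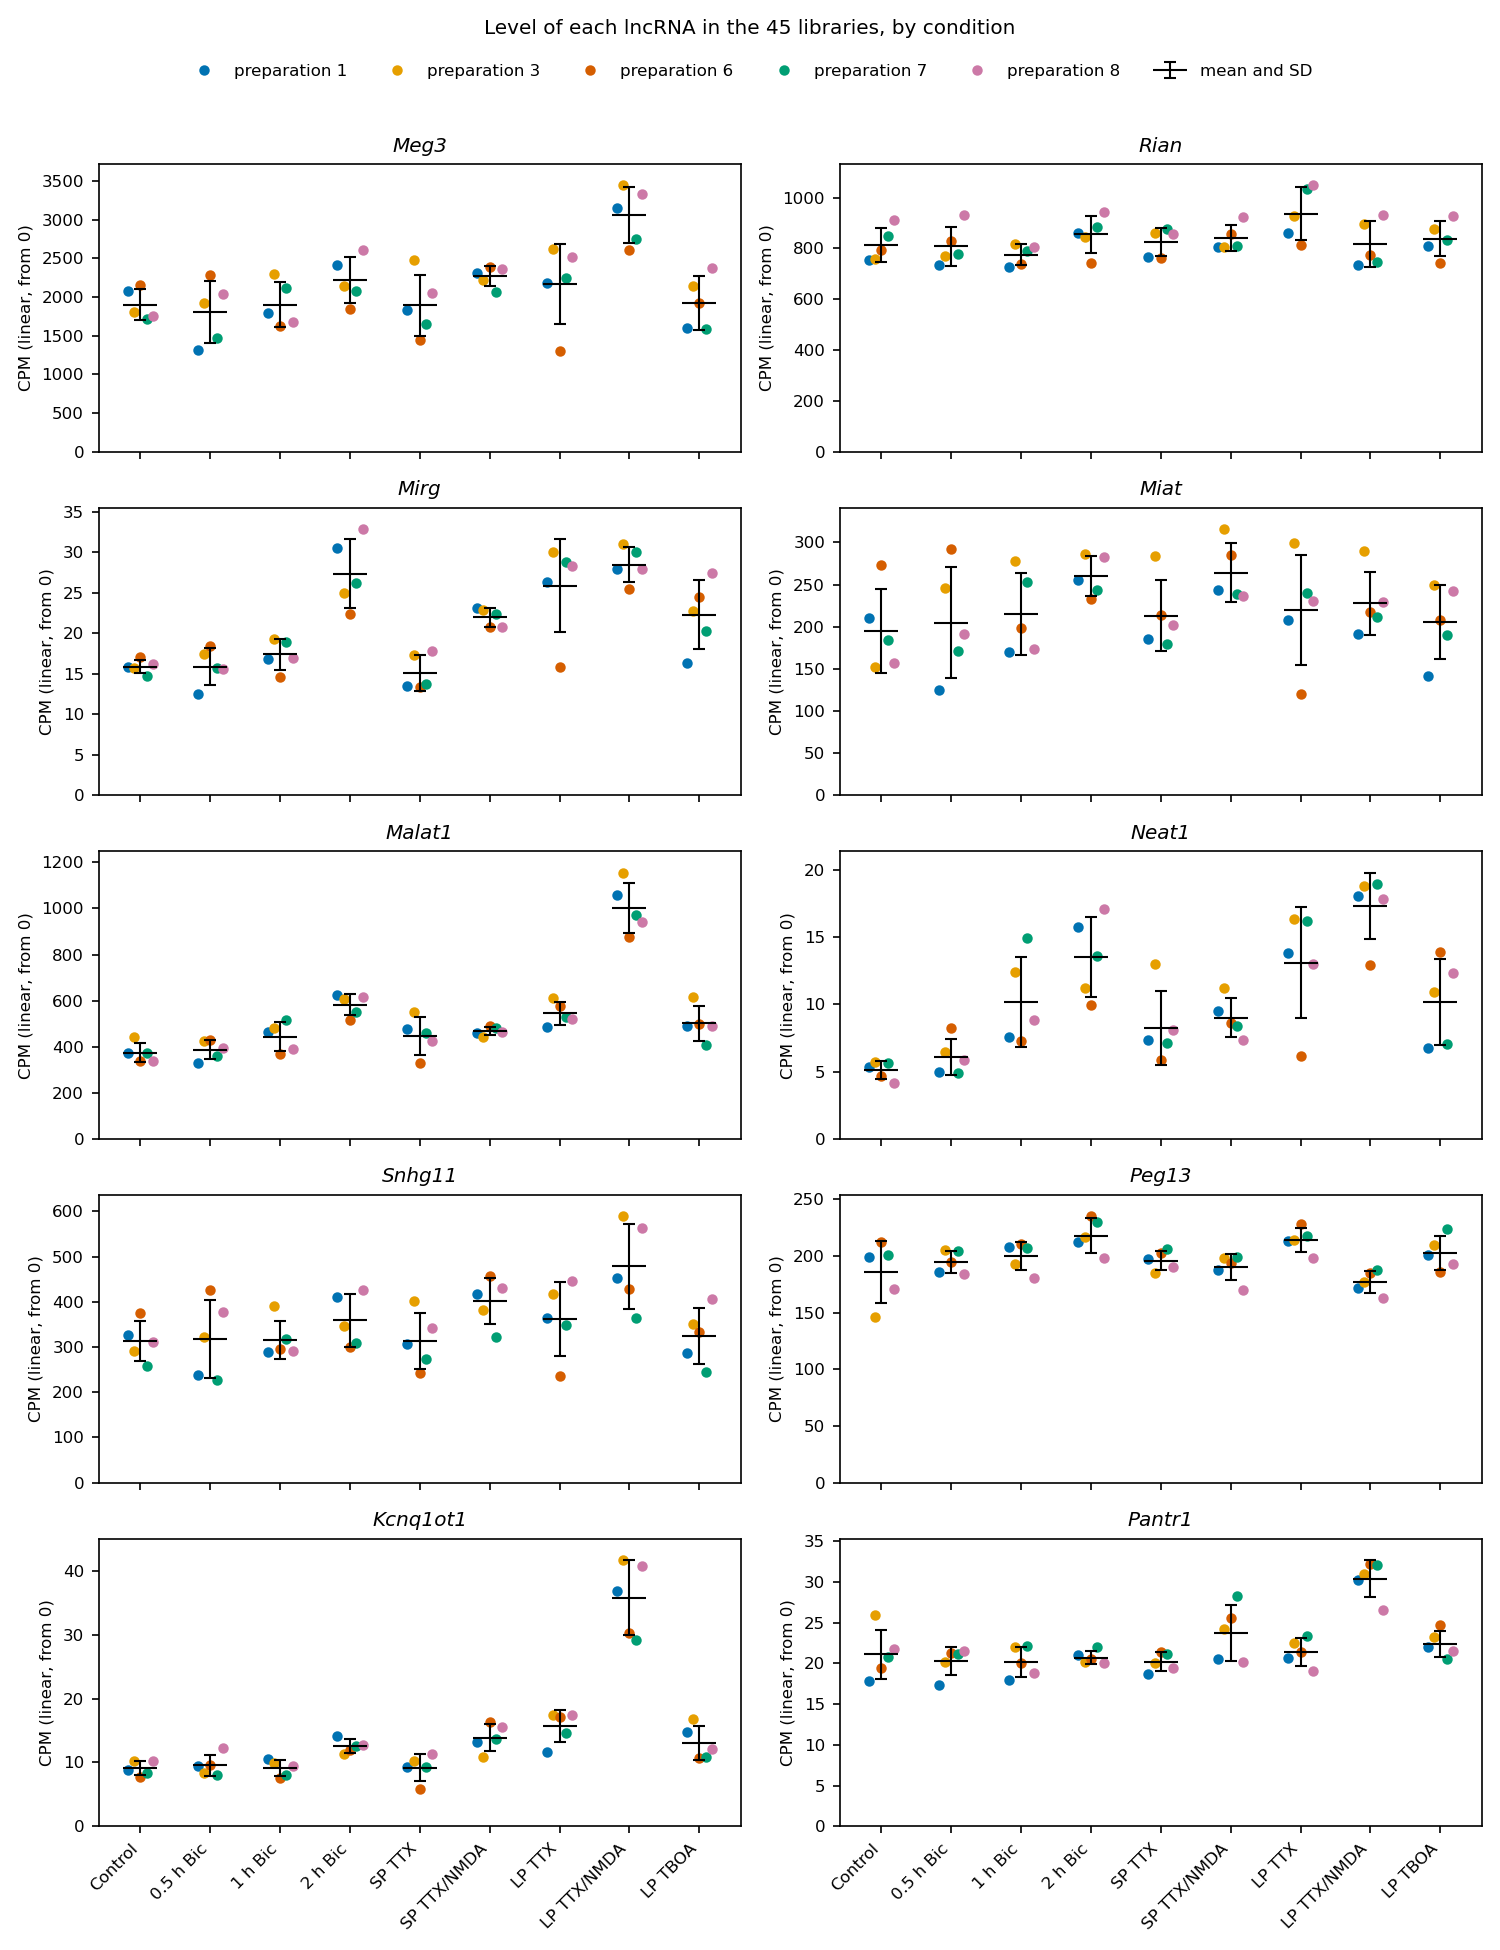
Level of each lncRNA in CPM (linear axis from 0) in the 9 conditions, with 1 point per library coloured by culture preparation and the mean with its SD as a black bar. Kcnq1ot1 and Malat1 were highest with LP TTX/NMDA in all 5 preparations (29.2 to 41.7 CPM and 875 to 1155 CPM), whereas Rian stayed between 726 and 1048 CPM throughout.

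Differential expression was tested with edgeR's quasi-likelihood test over all genes with at least 1 read, and a gene was called where its p, adjusted by the Benjamini-Hochberg method, was under 0.05. Because the labels give every library a number, read here as its preparation, each comparison was also fitted with this preparation as a block. That fit (the blocked fit) was run over the genes that pass filterByExpr. Bic changed few of the lncRNAs in the first hour: none was called after 0.5 h, where 0.289% of all 30133 genes were called and 0 of the 10 had an unadjusted p under 0.05, against 3.66% of all genes (DESeq2 also called 0 of the 10). After 1 h, 1 of 10 was called, Neat1, against 1.16% of all genes, and the blocked fit added Malat1 (2 of 10, against 4.07% of its genes). After 2 h, 5 of 10 were called and all 5 were higher, against 9.02% of all genes called and 4.24% called higher. Among the 13592 genes with a mean CPM of at least 1, to which all 10 belong, 18.6% were called at that time. The blocked fit added Peg13 (6 of 10, against 29.3%).

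The passive effect moved no lncRNA past the threshold in either protocol, with 0.268% of all genes called in the SP and 4.65% in the LP. An unadjusted p under 0.05 was found for 2 of 10 in the SP (Mirg and Neat1, negative values) and for 2 of 10 in the LP (Miat, negative, and Kcnq1ot1, positive), against 3.75% and 15.1% of all genes. The blocked fit of the LP called 3 of 10, against 32% of its genes, and DESeq2 called Kcnq1ot1 in the LP and none in the SP. In the active effect, 3 of 10 were called higher in the SP (4.28% of all genes called, 0.956% higher; 9.54% of genes with a mean CPM of at least 1), and the blocked fit called 5 (16.2% of its genes). In the LP active effect, 6 of 10 were called, 5 higher and 1 lower. The background of that comparison was high: 23.3% of all genes were called, 11.6% higher and 11.8% lower, and 46.9% of genes with a mean CPM of at least 1, so that 6 of 10 was close to the share among expressed genes. The blocked fit called 8 of 10, against 62.1%.

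In the SP total effect, Mirg, Snhg11 and Kcnq1ot1 were called higher (3 of 10, against 4.3% of all genes called and 0.891% called higher), and the blocked fit called 6 (27.3%). In the LP total effect, 7 of 10 were called, 6 higher and 1 lower, against 22.8% of all genes (11.7% higher, 11.1% lower) and 45.3% of genes with a mean CPM of at least 1. The blocked fit called 8 there (56.6%). Glutamate spillover moved none of the 10 past the threshold in the full set of libraries, with 0.602% of all genes called. Of the 10, 5 had an unadjusted p under 0.05 there, against 7.93% of all genes, and DESeq2 and the blocked fit called 0. Among genes with a mean CPM of at least 1, the groups did not overlap for 3.56% after 1 h Bic, where this held for 1 of the 10, and for 17% after 2 h, where it held for 4. The share was 10.4% in the SP active effect (1 of the 10), 9.95% in the SP total effect (2), 33% in the LP active effect (4) and 31.2% in the LP total effect (5).

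**Figure D2:**
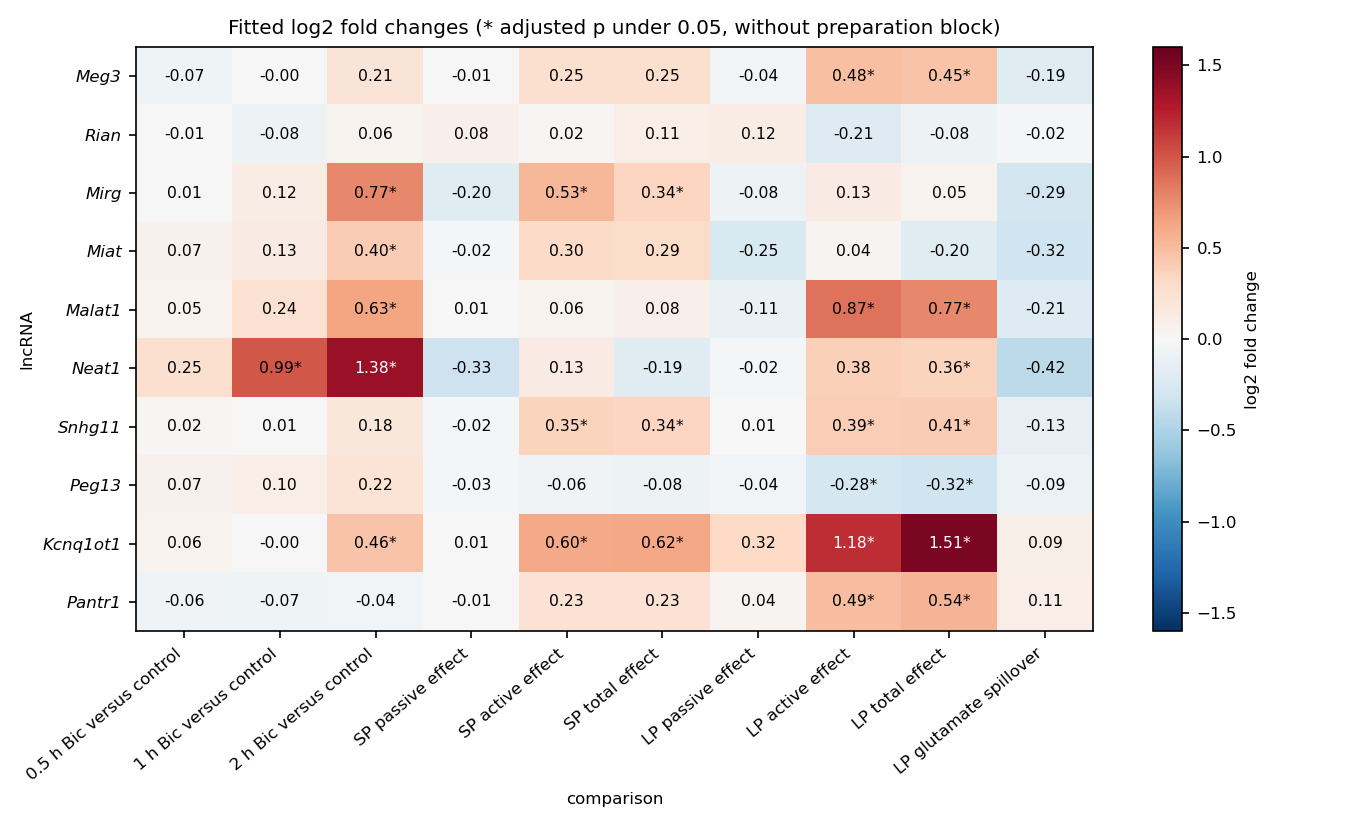
Fitted log2 fold changes of the 10 lncRNAs (vertical axis) in the 10 comparisons (horizontal axis), coloured from blue (lower) to red (higher), where an asterisk marks an adjusted p under 0.05 in the fit without the block. The largest values stand in the LP total effect for Kcnq1ot1 (1.51) and after 2 h Bic for Neat1 (1.38), and Peg13 has the only negative called values.

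Meg3, Rian and Mirg are read in this order from the plus strand of chromosome 12 and differed in the comparisons in which they were called. Over the 45 libraries, with preparation means removed, log2 CPM of Meg3 and Mirg correlated by r = 0.78. The value was 0.33 for Meg3 and Rian and 0.42 for Rian and Mirg. Meg3 (chr12:109541001-109571726) is a tumour suppressive lncRNA that binds chromatin modifiers. Its level with LP TTX was 2177, 2616, 1302, 2248 and 2515 CPM in preparations 1, 3, 6, 7 and 8, and with LP TTX/NMDA 3146, 3443, 2612, 2753 and 3331 CPM. It was higher with NMDA in every preparation, although the lowest TTX/NMDA library (2612 CPM) lay just under the highest TTX library (2616 CPM). The log2 fold change was 0.48 ± 0.12 (SE; edgeR adjusted p = 0.0021), and 0.38 without preparation 6, whose TTX library was the lowest. Against 2 h Bic, Meg3 was 0.45 ± 0.08 higher with LP TTX/NMDA on the log2 scale (edgeR adjusted p = 6.7e-05), without overlap of the libraries. In the SP, its active effect of 0.25 (95% confidence interval 0.06 to 0.44, edgeR adjusted p = 0.15) was called without preparation 3 (0.37, edgeR adjusted p = 0.0061) or 8 (0.27, edgeR adjusted p = 0.02), and was 0.15 without preparation 6 (edgeR adjusted p = 0.43). The SP total effect of 0.25 (95% confidence interval 0.09 to 0.41, edgeR adjusted p = 0.066) was called by the blocked fit (0.26, edgeR adjusted p = 0.022) and without preparation 3 or 7 (0.34 and 0.32, edgeR adjusted p = 0.0059 and 0.011), and was 0.18 without preparation 6 (edgeR adjusted p = 0.32). The value after 2 h Bic was 0.21 (95% confidence interval 0.03 to 0.40, edgeR adjusted p = 0.18), between 0.13 without preparation 8 (edgeR adjusted p = 0.52) and 0.32 without preparation 6 (edgeR adjusted p = 0.02).

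Rian (chr12:109603940-109661716), host of 13 annotated snoRNAs, had the narrowest range of condition means of the 10, from 775 CPM after 1 h Bic to 937 CPM with LP TTX, 1.21-fold. With LP TTX its libraries held 860, 926, 814, 1035 and 1048 CPM and with LP TTX/NMDA 735, 894, 772, 747 and 930 CPM. It was lower with NMDA in 5 of 5 preparations, with overlapping groups and a log2 fold change of −0.21 (95% confidence interval −0.37 to −0.05, edgeR adjusted p = 0.056). It was called without preparation 3, 6 or 8 (−0.24, −0.26 and −0.21, edgeR adjusted p = 0.049, 0.029 and 0.026), and not without preparation 1 or 7 (−0.21 and −0.14, edgeR adjusted p = 0.085 and 0.27). The blocked fit called this difference (−0.18, edgeR adjusted p = 0.0072), and also the LP passive effect of 0.11 (edgeR adjusted p = 0.034). Preparations accounted for 42.6% of its variation over the 45 libraries and conditions for 29%.

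Mirg, the miRNA host at the far end of the region, responded to Bic instead. The control libraries held 15.8, 15.7, 17.1, 14.8 and 16.2 CPM, and those of 2 h Bic 30.5, 25, 22.4, 26.2 and 32.9 CPM. Every 2 h library lay above every control library, with a log2 fold change of 0.77 ± 0.10 (edgeR adjusted p = 2.3e-07). After 1 h it was still at 17.4 ± 1.9 CPM (SD, n = 5). NMDA raised it in the SP, from 13.5, 17.3, 13.4, 13.7 and 17.8 CPM with TTX to 23.2, 22.9, 20.8, 22.4 and 20.8 CPM with TTX/NMDA, again without overlap (0.53 ± 0.09 on the log2 scale, edgeR adjusted p = 1.8e-04). In the LP, its level was 25.9 ± 5.71 CPM with TTX and 28.5 ± 2.17 CPM with TTX/NMDA, and the active effect of 0.13 (95% confidence interval −0.10 to 0.35) was not called. The SP total effect of 0.34 (95% confidence interval 0.17 to 0.51, edgeR adjusted p = 0.013) was lost without preparation 1 (0.31, edgeR adjusted p = 0.099) or 6 (0.30, edgeR adjusted p = 0.09).

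The ratios within a library show the same divergence and do not depend on the scaling between libraries; these pairs were chosen after their values were seen, so the ratios are a description. Meg3 over Rian was 2.35 ± 0.382 in the controls (SD, n = 5), 2.30 ± 0.459 with LP TTX and 3.76 ± 0.34 with LP TTX/NMDA, where the lowest library (3.38) lay above the highest LP TTX library (2.82). Mirg over Rian went from a log2 ratio of −5.67 ± 0.15 in the controls to −4.97 ± 0.13 after 2 h Bic, higher in 5 of 5 preparations. Mirg over Meg3 rose by 0.55 on the log2 scale from the controls to 2 h Bic and was 0.35 lower with LP TTX/NMDA than with LP TTX, in 5 of 5 preparations each.

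**Figure D3:**
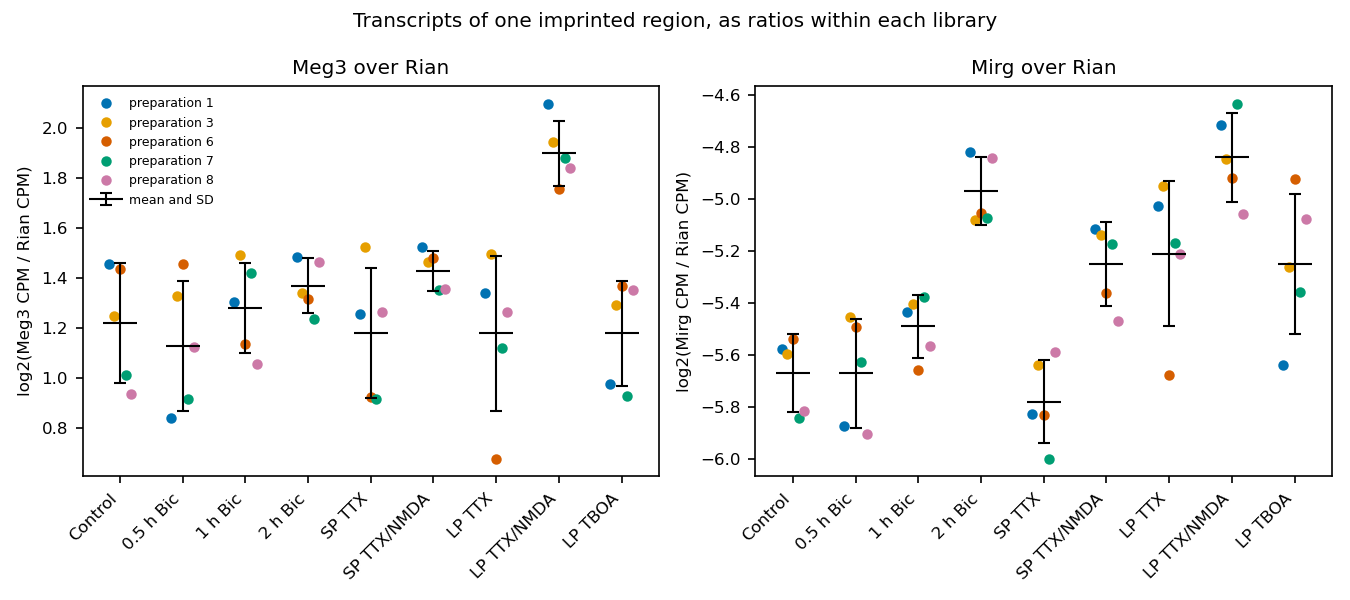
Log2 ratio of Meg3 to Rian CPM (left) and of Mirg to Rian CPM (right) in each library of the 9 conditions, coloured by preparation, with the mean and SD in black. Meg3 over Rian stood apart with LP TTX/NMDA at 1.90 ± 0.13, and Mirg over Rian was at −4.97 after 2 h Bic and −4.84 with LP TTX/NMDA against −5.67 in the controls.

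The protein-coding genes that flank these transcripts had low levels. Dlk1 was at 0.671 CPM in the controls and 1.18 CPM after 2 h Bic (log2 fold change 0.80, 95% confidence interval 0.24 to 1.35, edgeR adjusted p = 0.062), higher in 5 of 5 preparations and called by the blocked fit (0.80, edgeR adjusted p = 0.025). Rtl1 was at 0.0417 CPM in the controls and Dio3 at 0.875 CPM. Neither Rtl1 nor Dio3 was called at 2 h Bic, and none of the 3 in the LP active effect.

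Malat1 (chr19:5795690-5802672), the lncRNA of nuclear speckles, ends in a triple helix rather than a regular poly-A tail. It rose with Bic, from 372, 442, 339, 375 and 339 CPM in the controls to 623, 609, 518, 549 and 616 CPM after 2 h. These groups did not overlap, and the log2 fold change was 0.63 ± 0.08 (edgeR adjusted p = 4.6e-07). The 1 h value of 0.24 (95% confidence interval 0.06 to 0.42), higher in 5 of 5 preparations, was called by the blocked fit alone (edgeR adjusted p = 0.038). A further rise came with NMDA in the LP: 485, 611, 578, 529 and 520 CPM with TTX against 1056, 1155, 875, 972 and 943 CPM with TTX/NMDA. The level was 1.83-fold higher and every TTX/NMDA library exceeded every TTX library (log2 fold change 0.87 ± 0.08, edgeR adjusted p = 4.0e-10). In the SP, the active effect was 0.06 (95% confidence interval −0.12 to 0.23).

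Neat1 (chr19:5824708-5845478), its neighbour on the same strand, builds the paraspeckle. It was the first of the 10 to respond to Bic, with 5.31, 5.71, 4.67, 5.66 and 4.16 CPM in the controls and 7.57, 12.4, 7.29, 14.9 and 8.86 CPM after 1 h. The lowest 1 h library exceeded the highest control library, and the level was 1.99-fold higher (log2 fold change 0.99 ± 0.15, edgeR adjusted p = 2.2e-05). After 2 h it stood at 15.7, 11.2, 9.97, 13.6 and 17.1 CPM, 2.6-fold above the controls (log2 fold change 1.38 ± 0.13, edgeR adjusted p = 9.3e-10). Its libraries varied more than those of Malat1 at this time, with an SD of 2.99 around a mean of 13.5 CPM against 46.7 around 583 CPM. With LP TTX it was at 13.8, 16.3, 6.19, 16.2 and 13 CPM, and with LP TTX/NMDA at 18, 18.8, 12.9, 18.9 and 17.8 CPM. It was higher in 5 of 5 preparations, the groups overlapped through preparation 6, and the log2 fold change of 0.38 (95% confidence interval 0.07 to 0.70, edgeR adjusted p = 0.07) passed the threshold in the blocked fit (0.42, edgeR adjusted p = 5.0e-04) and without preparation 3, 7 or 8 (0.44, 0.44 and 0.37, edgeR adjusted p = 0.045, 0.031 and 0.015), but not without preparation 1 or 6 (0.38 and 0.28, edgeR adjusted p = 0.13 and 0.054). The LP total effect of 0.36 ± 0.12 was called (edgeR adjusted p = 0.021), but not without preparation 3 (0.29, edgeR adjusted p = 0.096) and not by DESeq2 (adjusted p = 0.058). Malat1 over Neat1 fell by 0.74 on the log2 scale from the controls to 2 h Bic, in 5 of 5 preparations.

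Miat (chr5:112213228-112229395), a neuronal lncRNA known to bind splicing factors, had the largest share of variation left after conditions and preparations. Its control libraries held 210, 152, 273, 184 and 157 CPM and those of 2 h Bic 255, 286, 233, 244 and 283 CPM. The groups overlapped, 4 of 5 preparations rose, and the log2 fold change of 0.40 ± 0.11 was called (edgeR adjusted p = 0.012), though not when all 45 libraries shared a fit (edgeR adjusted p = 0.17). The SP active effect was 0.30 (95% confidence interval 0.12 to 0.49, edgeR adjusted p = 0.055) and was called by the blocked fit (0.33, edgeR adjusted p = 0.0028) and without preparation 3 or 8 (0.35 and 0.32, edgeR adjusted p = 0.0049 and 0.0016), but not without 1, 6 or 7 (edgeR adjusted p = 0.12, 0.077 and 0.077). Its SP total effect of 0.29 (95% confidence interval 0.10 to 0.49, edgeR adjusted p = 0.084) was called by the blocked fit (0.31, edgeR adjusted p = 0.005) and without preparation 3, 7 or 8 (0.34, 0.39 and 0.26, edgeR adjusted p = 0.014, 0.0019 and 0.027), but not without 1 or 6 (0.25 and 0.24, edgeR adjusted p = 0.23 and 0.19). The LP passive effect of Miat was −0.25 (95% confidence interval −0.49 to 0.00, edgeR adjusted p = 0.33). It was called by the blocked fit (−0.31, edgeR adjusted p = 0.013) and without preparation 3 (−0.34, edgeR adjusted p = 0.027), and was −0.13 without preparation 6 (edgeR adjusted p = 0.54). The LP total effect was −0.20 (95% confidence interval −0.37 to −0.04, edgeR adjusted p = 0.069), called by the blocked fit (−0.19, edgeR adjusted p = 0.021) and without preparation 3 (−0.24, edgeR adjusted p = 0.024), and −0.13 without preparation 1 (edgeR adjusted p = 0.34). Of its variation, 21.8% lay between conditions, 21.8% between preparations and 56.5% was left.

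Kcnq1ot1 (chr7:143203458-143296549, minus strand) runs antisense through Kcnq1 and had the widest range of condition means, 3.93-fold. The controls held 8.88, 10.3, 7.79, 8.34 and 10.2 CPM and 2 h Bic 14.2, 11.3, 12, 12.6 and 12.7 CPM, a rise of 0.46 ± 0.11 on the log2 scale without overlap (edgeR adjusted p = 0.0029). With SP TTX/NMDA it was at 13.2, 10.9, 16.4, 13.6 and 15.6 CPM against 9.28, 10.2, 5.84, 9.31 and 11.3 CPM with SP TTX. The libraries overlapped, and the log2 fold change was 0.60 ± 0.13 (edgeR adjusted p = 0.0034). This SP value was 0.40 without preparation 6, whose TTX library was the lowest (edgeR adjusted p = 0.032). In the LP, TTX libraries held 11.7, 17.5, 17.1, 14.6 and 17.4 CPM and TTX/NMDA libraries 36.9, 41.7, 30.2, 29.2 and 40.8 CPM. All TTX/NMDA libraries lay far above all TTX libraries, 2.27-fold on average (log2 fold change 1.18 ± 0.11, edgeR adjusted p = 7.0e-10). Against 2 h Bic the level was 2.84-fold higher (1.51 ± 0.10, edgeR adjusted p = 3.1e-14). The LP passive effect of 0.32 (95% confidence interval 0.11 to 0.52, edgeR adjusted p = 0.064) was called by the blocked fit (0.31, edgeR adjusted p = 0.012), by DESeq2 (0.31, adjusted p = 0.04) and without preparation 1 (0.45, edgeR adjusted p = 0.0038), and by no fit that left out another preparation (0.24 to 0.35, edgeR adjusted p from 0.076 to 0.31).

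The reads of Kcnq1ot1 were counted on its own strand, and Kcnq1, the potassium channel gene that encloses it, was at 0.115 CPM with LP TTX and 0.137 CPM with LP TTX/NMDA. Cdkn1c, a growth inhibitor silenced by Kcnq1ot1 in embryos, was at 1.41 and 1.63 CPM in the same conditions (log2 fold change 0.25, 95% confidence interval −0.17 to 0.67).

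Peg13 (chr15:72805600-72810324) is a paternally expressed transcript inside an intron of Trappc9 and was the 1 member of the 10 called lower without the block. Its libraries held 213, 214, 228, 218 and 198 CPM with LP TTX and 172, 177, 185, 188 and 163 CPM with LP TTX/NMDA. The groups did not overlap, and the log2 differences within preparations ran from −0.31 to −0.21 (fitted log2 fold change −0.28 ± 0.07, edgeR adjusted p = 0.0014). The LP total effect was −0.32 ± 0.07 (edgeR adjusted p = 6.1e-04), while the SP active effect was −0.06 (95% confidence interval −0.19 to 0.07). Trappc9, annotated on the same strand, also fell in the LP active effect, from 87.9 to 74.3 CPM (−0.25, edgeR adjusted p = 0.0068), as did the imprinted potassium channel gene Kcnk9, from 140 to 97.2 CPM (−0.53, edgeR adjusted p = 5.7e-07). Chrac1, the neighbour on the other side, rose from 6.52 to 9.06 CPM (0.46, edgeR adjusted p = 0.0066). Reads of Peg13 and of unspliced Trappc9 RNA over the same bases cannot be told apart in these counts. After 2 h Bic, Peg13 was 0.22 higher (95% confidence interval 0.04 to 0.40), which was called by the blocked fit (0.24, edgeR adjusted p = 0.018).

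Snhg11 (chr2:158375638-158386145) is a neuronal snoRNA host gene, annotated as protein coding. With SP TTX it was at 307, 402, 243, 274 and 341 CPM and with SP TTX/NMDA at 417, 382, 456, 323 and 430 CPM. It was higher in 4 of 5 preparations with overlapping groups (0.35 on the log2 scale, 95% confidence interval 0.15 to 0.55, edgeR adjusted p = 0.028). This call was lost without preparation 1 (0.34, edgeR adjusted p = 0.077) or preparation 6 (0.22, edgeR adjusted p = 0.16), with filterByExpr (edgeR adjusted p = 0.095), by DESeq2 (adjusted p = 0.05) and with all 45 libraries in the fit (edgeR adjusted p = 0.24). In the LP its libraries held 364, 417, 236, 348 and 447 CPM with TTX and 453, 589, 428, 365 and 563 CPM with TTX/NMDA. Every preparation rose, between 0.07 and 0.86 on the log2 scale, and the fitted change was 0.39 ± 0.12 (edgeR adjusted p = 0.015; 0.053 with all 45 libraries in the fit). Against 2 h Bic it was 0.41 ± 0.10 higher (edgeR adjusted p = 0.0018). The SP total effect of 0.34 (95% confidence interval 0.17 to 0.51, edgeR adjusted p = 0.0091) was lost without preparation 1 (0.30, edgeR adjusted p = 0.068) or 6 (0.27, edgeR adjusted p = 0.06), and the value after 2 h Bic of 0.18 (95% confidence interval −0.01 to 0.38, edgeR adjusted p = 0.32) ran from 0.12 without preparation 8 (edgeR adjusted p = 0.56) to 0.32 without preparation 6 (edgeR adjusted p = 0.021).

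Pantr1 (chr1:42590782-42694842) starts 0.9 kb from Pou3f3, a transcription factor gene of the developing cortex. Its value after 2 h Bic was −0.04 on the log2 scale (95% confidence interval −0.23 to 0.15), whereas Pou3f3 rose from 97.6 to 145 CPM (0.56 ± 0.08, edgeR adjusted p = 1.9e-06). With LP TTX, Pantr1 was at 20.6, 22.5, 21.4, 23.4 and 19 CPM and with LP TTX/NMDA at 30.2, 31, 32.2, 32.1 and 26.6 CPM. All TTX/NMDA libraries exceeded all TTX libraries (0.49 ± 0.08, edgeR adjusted p = 2.5e-05), and the preparations spread from 0.46 to 0.59 on the log2 scale. Pou3f3 stood at 126 and 128 CPM in the same conditions (0.01, 95% confidence interval −0.12 to 0.15). The SP active effect of Pantr1, 0.23 (95% confidence interval 0.05 to 0.41), was called by the blocked fit (edgeR adjusted p = 0.031), as was its SP total effect (0.22, edgeR adjusted p = 0.008).

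The LP and SP active effects were compared in an interaction fit over their 20 libraries. Malat1 differed between the protocols, with an LP effect 0.82 ± 0.12 larger on the log2 scale, positive in 5 of 5 preparations (0.02 to 1.23; edgeR adjusted p = 2.5e-05). It was the 1 of 10 called, against 2.57% of all genes. Kcnq1ot1 had a difference of 0.60 (95% confidence interval 0.22 to 0.98, edgeR adjusted p = 0.08), which was 0.88 without preparation 6 (edgeR adjusted p = 0.001) and 0.46 to 0.62 without any other (edgeR adjusted p from 0.059 to 0.35). The blocked fit called 6 of 10, against 25% of its genes: Malat1 (0.79), Kcnq1ot1 (0.56, edgeR adjusted p = 0.037) and Pantr1 (0.28, edgeR adjusted p = 0.0068) with a larger LP effect, and Rian (−0.22, edgeR adjusted p = 0.038), Mirg (−0.39, edgeR adjusted p = 0.031) and Peg13 (−0.22, edgeR adjusted p = 0.0054) with a lower LP effect. For the passive effect, no difference between the protocols was called for any of the 10 by edgeR, with or without the block, where 0.256% of all genes were called none of the 10 had an unadjusted p under 0.05, against 5.36% of all genes, and DESeq2 called 0 of them.

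**Figure D4:**
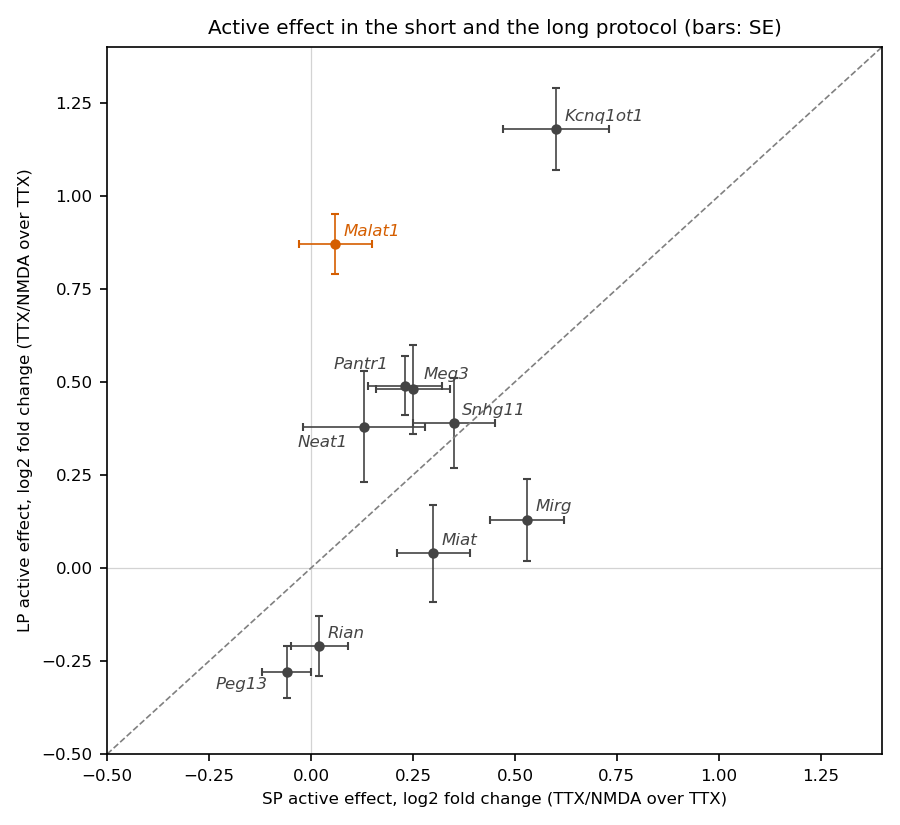
LP active effect (vertical) against SP active effect (horizontal) of each lncRNA as fitted log2 fold changes with their SE, with equal effects on the dashed line and the lncRNA called in the interaction fit in orange. Malat1 lies far above the line (SP 0.06, LP 0.87), and Mirg lies below it (0.53 and 0.13).

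The fitted values for glutamate spillover were negative for 8 of the 10, and none was called. The largest were Neat1 at −0.42 (95% confidence interval −0.73 to −0.12), Miat at −0.32 (−0.52 to −0.13) and Mirg at −0.29 (−0.51 to −0.07), with edgeR adjusted p of 0.36, 0.16 and 0.39. Without preparation 8, edgeR called these 3 (−0.43, −0.36 and −0.32, adjusted p = 0.0073, 4.8e-05 and 0.015). Miat was also called without preparation 3 (−0.37, edgeR adjusted p = 0.028) and Neat1 without preparation 6 (−0.63, edgeR adjusted p = 0.013). Without preparation 1, the values of Neat1, Miat and Mirg were −0.22, −0.21 and −0.14 (edgeR adjusted p = 0.76, 0.5 and 0.76). Neat1 ran from −1.21 to 0.48 on the log2 scale across preparations.

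Markers of other cells moved with the LP active effect. In that comparison, 23.3% of all genes and 46.9% of genes with a mean CPM of at least 1 were called. All 7 astrocyte markers were called higher with TTX/NMDA than with TTX, with a median log2 fold change of 0.84, and their summed level was 816 to 1716 CPM against 458 to 962 CPM. Of the 11 neuron markers, 6 were called lower (Map2, Syn1, Syt1, Slc17a7, Grin1 and Camk2a) and 0 higher. The sum of all 11 went from 9914 to 11060 CPM down to 8035 to 8756 CPM. Of those not called, mean CPM rose for Gad1 (1023 to 1189), Gad2 (428 to 462), Rbfox3 (192 to 203) and Tubb3 (879 to 890). It fell for Snap25 (1153 to 1039). Called higher were also 4 of 7 markers of the oligodendrocyte lineage, 3 of 3 of fibroblasts, 2 of 4 of endothelium and mural cells, 2 of 5 of microglia and 2 of 2 of dividing cells. The part of these shifts in the changes of Kcnq1ot1, Malat1, Meg3, Neat1, Snhg11, Pantr1 and Peg13 was not tested. In the SP active effect, where Mirg, Snhg11 and Kcnq1ot1 were called higher, no astrocyte marker was called (median 0.09), and 3 neuron markers were lower (Map2, Slc17a7 and Camk2a) and 1 higher (Gad1). After 2 h Bic, no marker of neurons or astrocytes was called.

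Related transcripts gave context. Of 15 other snoRNA host transcripts tested, 10 were called higher and 2 lower in the LP active effect, where 23.3% of all genes and 46.9% of genes with a mean CPM of at least 1 were called. Their median log2 fold change was 0.44 against 0.11 over all genes tested, and for the 13 with a mean CPM of at least 1 it was 0.41 against −0.01 over all such genes. The growth arrest transcript Gas5 rose from 61.4 to 87.3 CPM (0.50 ± 0.07, edgeR adjusted p = 6.1e-06), Snhg8 from 14.7 to 23.2 CPM (0.66 ± 0.09, adjusted p = 2.8e-06), Snhg6 from 18 to 25.6 CPM and Snhg20 from 4.04 to 7.56 CPM. Among 25 other named lncRNAs, 4 were called higher and 4 lower (median 0.08): Tug1 fell from 165 to 120 CPM (−0.47) and 1700020I14Rik from 1281 to 838 CPM (−0.62), while B830012L14Rik, at 0.307 and 1.10 CPM, was higher by 1.79.

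Of 43 other imprinted genes, 5 were called higher and 17 lower in the LP active effect, with a median of −0.15. The background for each list in this paragraph was 23.3% of all genes called, with a median of 0.11. Among genes with a mean CPM of at least 1, it was 46.9%, with a median of −0.01. Zdbf2, a paternally expressed gene of neurons, went from 425 to 120 CPM (−1.83 ± 0.10, edgeR adjusted p = 1.2e-14), and Mest from 162 to 87.8 CPM (−0.90). Both had risen with 2 h Bic, Zdbf2 by 2.38 and Mest by 2.22 on the log2 scale. Of 26 paraspeckle protein genes, the partners of Neat1, 1 was called higher and 4 lower with a median of −0.06, among them Nono (135 to 119 CPM) and Rbm14 (35.6 to 27.7 CPM). Rbm14 had risen with 2 h Bic by 1.06 on the log2 scale (edgeR adjusted p = 3.6e-12). Of 23 genes of nuclear speckles and SR splicing proteins, 5 were called higher and 4 lower (median 0.06), among them the splicing kinase Clk1, which rose by 0.76 in the LP active effect and by 0.79 with 2 h Bic. Of 17 neighbouring and enclosing protein genes, 2 were called higher and 3 lower (median 0.09).

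The genes whose pattern was most like each lncRNA were ranked by the correlation of log2 CPM over the 45 libraries after the preparation means were removed, among 13592 genes. These libraries share conditions, so the values describe likeness alone. Meg3 and Snhg11 were each other's nearest gene (r = 0.97), and so were Malat1 and Kcnq1ot1 (r = 0.92). Mirg was followed by the lipid enzyme gene Dgat1 (0.89) and by Neat1 (0.86), and Neat1 had Mirg as its nearest gene. Miat was most like Firre (0.90), a nuclear lncRNA of the X chromosome, Rian like Cstf2 (0.84), which encodes an mRNA 3′ end processing factor, Peg13 like the lipid kinase gene Pi4ka (0.94), and Pantr1 like the kinase gene Lyn (0.93). Peg13 and Pantr1 ran opposite to each other (r = −0.57).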

How the data were processed

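Poly-A RNA libraries (NEBNext Ultra II directional) of 45 cultures were sequenced as single reads. Per the labels and the study's methods, the authors aligned reads with STAR 2.5.4b to GRCm38 and counted them on the sense strand with featureCounts 1.6.5 against Ensembl 94, and the deposited values are raw counts per gene. Reads that map to several places or overlap several genes were not counted. Poly-A selection can miss ends without a regular tail, such as those of Malat1 and the long Neat1 isoform.

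From these counts, edgeR 4.0.16 (R 4.3.3; TMM scaling, quasi-likelihood test, Benjamini-Hochberg adjustment over all genes with at least 1 read, threshold 0.05) compared each condition with its reference. CPM use the TMM-scaled library sizes. Gene models came from GENCODE M21, which matched 54409 of 54532 identifiers. Alternatives were filterByExpr, DESeq2 1.42.0, a fit over all 45 libraries, each preparation left out, and the preparation as a block with filterByExpr. The numbers in the labels were read as culture preparations, so same-numbered libraries were taken as paired. Their deviations from the group means correlated by 0.35 to 0.55 on average per comparison over 13592 genes, with a lowest single value of −0.19.

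The test was checked on simulated counts: it recovered planted changes, and more of its calls were false than the threshold allows, so calls of members near the threshold are weak. Intervals, the blocked fit or fits without 1 preparation are given beside most of them. The blocked fit also made more false calls there than the threshold allows. The simulated counts held few changed genes and no preparation effect. They therefore do not give the share of false calls in these data and cannot test the pairing. All 10 members were tested in every comparison, and the text gives values for only some of them in each. Other genes were named from those with the smallest adjusted p in the LP active effect (at most 4 per list). Some with a smaller adjusted p than a named gene of their list were left out, such as A330023F24Rik, Rbm12 and Zfp335. The genes next to a member, described beside it, were chosen after their values were seen. The members and lists were chosen with earlier results of these data known. Intervals are 95% confidence intervals of the fit.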

Additional observations from a re-analysis of the deposited data

Results flagged for a closer look

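The level of Mirg with LP TTX in preparation 6 was 15.9 CPM, far below the other 4 preparations at 26.4 to 30.0 CPM. The level of Neat1 with LP TTX/NMDA in preparation 6 was 12.9 CPM, against 17.8 to 18.9 CPM in the others. The level of Snhg11 after 1 h Bic in preparation 3 was 390.0 CPM, against 289 to 317 CPM in the others. These 3 were found by Dixon's test among 90 groups of 5 libraries, and chance alone marks about 5% of such groups (1 in 20).

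The active effect of Malat1 differed between the protocols, being 0.82 larger on the log2 scale in the LP by the interaction term (edgeR's quasi-likelihood test, adjusted p = 2.5e-05).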

How the results depend on the processing

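Of 494 log2 fold changes of the lncRNAs recomputed under alternatives, 431 kept their direction and side of the threshold, 16 lost the call, 47 gained it and 0 reversed. These values cover only some pairs of lncRNA and comparison. They include none for 0.5 h Bic and, after 1 h Bic, only Malat1 and Neat1. Among the 10, the replicate block with filterByExpr called 2 after 1 h Bic, 5 in the SP active effect, 6 in the SP total effect, 3 in the LP passive effect and 6 in the LP minus SP active effect. The block changed no call of these lncRNAs beyond those given with their values in the report. The fit of all 45 libraries called 1 in the SP total effect, and DESeq2 called 1 in the LP passive effect. With 1 preparation left out, the counts ran from 2 to 5 (SP active), 1 to 5 (SP total), 0 to 1 (LP passive), 0 to 3 (spillover) and 1 to 2 (LP minus SP active).

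Over all genes, the block called 618 (against 357) after 1 h Bic, 4479 (2789) after 2 h, 2548 (1379) for SP active, 4217 (1351) for SP total, 4978 (1485) for LP passive, 417 (191) for spillover, 323 (88) for LP minus SP passive and 4165 (900) for LP minus SP active. DESeq2 called 2335 for LP passive, 315 for spillover, 181 and 1632 for the LP minus SP passive and active effects. For SP passive (85), filterByExpr called 35 and the fit of all libraries 48, and for spillover 104 and 95. With 1 preparation left out, calls ran from 52 to 163 (SP passive), 918 to 1828 (SP active), 801 to 2068 (SP total), 909 to 1647 (LP passive), 123 to 493 (spillover), 39 to 123 (LP minus SP passive) and 489 to 1128 (LP minus SP active). The cause was not tested. Neat1 rests on the lowest counts, at least 61 reads per library.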

Other observations

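Within a condition, several of the lncRNAs were high or low in the same libraries. After condition and preparation means were removed from log2 CPM, the residuals of Meg3 and Snhg11 correlated by r = 0.96 over the 45 libraries, those of Meg3 and Miat by 0.91, Miat and Snhg11 by 0.86, Meg3 and Mirg by 0.85, and Mirg and Neat1 by 0.84. Malat1 and Kcnq1ot1 correlated by 0.66, Rian and Meg3 by 0.54, and Peg13 and Pantr1 by −0.55. These points share the scaling of their library and are given as a description. Preparation 6 gave the lowest level for 7 of the 10 with SP TTX and after 2 h Bic, but the highest for 6 of the 10 after 0.5 h Bic.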
